A study of Mus musculus with 2 samples.

Results

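The Hedgehog pathway genes Ihh, Dhh, Ptch1, Smo, Gli1, Gli2, Gli3 and Hhip were examined in the mouse ovary treated with tachykinin (TK) receptor (TKR) ligands. All probes of these 8 genes were taken by gene name or RefSeq transcript from the arrays, and each of the 8 had a probe, out of 20658 genes named on the array. The 2 samples were ovaries of 2-week-old mice, bisected and cultured for 3 days. One was treated with agonists and the other with antagonists of the TKRs TACR1, TACR2 and TACR3, with each ligand at 1 μM. [Sar9, Met(O2)11]-SP, GR-64349 and a succinyl peptide were the agonists of TACR1, TACR2 and TACR3, and the antagonists included SB218795 against TACR3 and GR-94800 against TACR2. Strain and genotype are not given in the labels, and how many ovaries went into each RNA is not given in the sources used here. One array was hybridised for each group, so that no value has a replicate, no test was possible and no p-value is given. An ovary without ligand was not analysed here, so that a lower value with agonists cannot be told apart from a higher value with antagonists.

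In the Hedgehog pathway a secreted ligand binds the receptor Patched, which relieves the membrane protein Smoothened (Smo) from inhibition and lets the Gli transcription factors act on their targets. In the growing follicle, granulosa cells are the source of Indian hedgehog (Ihh) and Desert hedgehog (Dhh), and the surrounding stromal and theca cells are the responding cells. Ptch1, Gli1 and Hhip are themselves induced by the pathway in most tissues and are widely read as its targets.

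The 2 ligand genes had the lowest agonist to antagonist ratios among the 8 genes, each read by its brighter probe. Ihh was 2.14-fold lower and Dhh 1.71-fold lower with TKR agonists. Of the target genes, Ptch1 was 1.33-fold lower, Gli1 1.08-fold lower and Hhip 1.38-fold lower by its brighter probe. The dimmer Hhip probe, at 1.78-fold lower, lay beyond Dhh. Folds and log2 ratios are given as agonists over antagonists after each array's signal had been divided by its 75th percentile, unless the signal is stated as unscaled. Signals themselves, and their sums, are given unscaled throughout.

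The promoters of the ligand genes are shown because these had the lowest ratios among the 8 genes by the brighter probe. That of Ptch1 is shown as the target receptor. The ratios of Dhh and Ptch1 differed by 0.37, with an error of 0.29, so that the ligands did not stand apart from Ptch1 as a pair. They come from RefSeq on GRCm38.p6, which matched 7 of the 8 genes (Gli1 had no entry), and hold the 250 bases before the gene start, read 5′ to 3′ on the strand of the gene. Capitals mark the GC box GGGCGG on either strand. Ihh lies at chr1:74951673-74951922, Dhh at chr15:98898541-98898790 and Ptch1 at chr13:63565736-63565985, each on the minus strand.
Ihh: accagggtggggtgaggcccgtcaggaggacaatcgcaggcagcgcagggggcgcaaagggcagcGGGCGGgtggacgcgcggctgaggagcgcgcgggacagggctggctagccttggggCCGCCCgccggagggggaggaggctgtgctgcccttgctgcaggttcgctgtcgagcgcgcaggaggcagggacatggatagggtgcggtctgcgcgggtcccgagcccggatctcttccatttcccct
Dhh: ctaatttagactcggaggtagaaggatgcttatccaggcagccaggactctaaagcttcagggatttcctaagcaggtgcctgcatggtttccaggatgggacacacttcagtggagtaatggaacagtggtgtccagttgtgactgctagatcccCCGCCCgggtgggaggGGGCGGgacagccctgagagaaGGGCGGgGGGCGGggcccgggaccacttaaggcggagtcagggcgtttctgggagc
Ptch1: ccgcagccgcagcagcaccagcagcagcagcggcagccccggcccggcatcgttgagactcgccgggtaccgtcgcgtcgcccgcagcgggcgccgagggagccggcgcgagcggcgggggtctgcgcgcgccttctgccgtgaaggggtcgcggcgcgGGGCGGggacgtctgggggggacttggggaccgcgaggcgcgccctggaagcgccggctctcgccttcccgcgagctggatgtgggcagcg

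The Dhh window held 4 GC boxes, that of Ihh 2 and that of Ptch1 1. The windows of Gli3 and Hhip also held 2 each, and that of Gli2 held 1. Of the 7 genes with a window, 6 held a GC box, against 32.7% of the 32851 windows of the same length in the table, and the exception was Smo. The GC content was 72.0% for Ihh, 59.6% for Dhh and 78.4% for Ptch1, beside a median of 52.4% over all windows. The other windows were also above that median, with Smo at 68.4%, Gli2 at 67.2%, Gli3 at 72.8% and Hhip at 76.0%. The share of windows with a GC box was not matched for GC content. The Gli motif GACCACCCA was in none of the 7 windows and in 0.225% of all windows, and the motif AAGGTCA of the NR5A nuclear receptors was in none of the 7 and in 4.08% of all. Both strands were searched, and since only the GC box was found no match overlapped one of another motif. A match or its lack is a description of these letters in these windows.

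The 8 genes were represented by 10 probes, Smo and Hhip by 2 each and the others by 1 each, and each probe was printed as a single spot. All 10 were well above background on both arrays (as were 65.4% of all spots with agonists and 61.6% with antagonists), and no member spot was saturated or marked as an outlier. The software's own error of a spot gave an error of the log2 ratio of 0.20 to 0.24 for these probes, called the spot error here. For the brighter probes the software's error was nearly a fixed share of the signal, as 683 of 6832 for Ihh and 1115 of 11153 for Smo with agonists. A limit of 2 such errors is thus nearly the same cut for all pairs of these genes. The spot error is the software's figure for the measurement on the array and does not cover the spread between ovaries. Probes printed at 8 or more spots showed how well a ratio repeats within the arrays: the median SD of the log2 ratio was 0.059 at signals of 1000 to 20000 (127 probes), 0.084 at 200 to 1000 (87 probes) and 0.17 at 50 to 200 (54 probes).

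The ligand Ihh gave an unscaled signal of 6832 with agonists and 12387 with antagonists. After scaling, its log2 ratio was -1.10 (spot error 0.20). Among the 33073 probes that passed the background limit on each array, 0.454% had a lower ratio than Ihh. Ihh is the hedgehog best known from cartilage growth and is also made by granulosa cells of growing follicles.

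The ligand Dhh, known from the testis and from peripheral nerve sheaths and made in the ovary by granulosa cells, gave 1923 with agonists and 2787 with antagonists. Its log2 ratio was -0.78 (spot error 0.20), and 1.96% of probes lay below it. The ratios of Ihh and Dhh differed by -0.32 with an error of 0.29 from the spot errors, so that the pair lay within 2 such errors. The median SD between repeated spots at such signals, 0.059 for a ratio, was smaller than the spot error. The third hedgehog gene, Shh, was printed at 10 spots. None of them was well above background with antagonists (signals of 3.997 to 4.68), and the single spot above background with agonists was marked as an outlier, while the other 9 spots read 3.66 to 4.45.

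**Figure D1:**
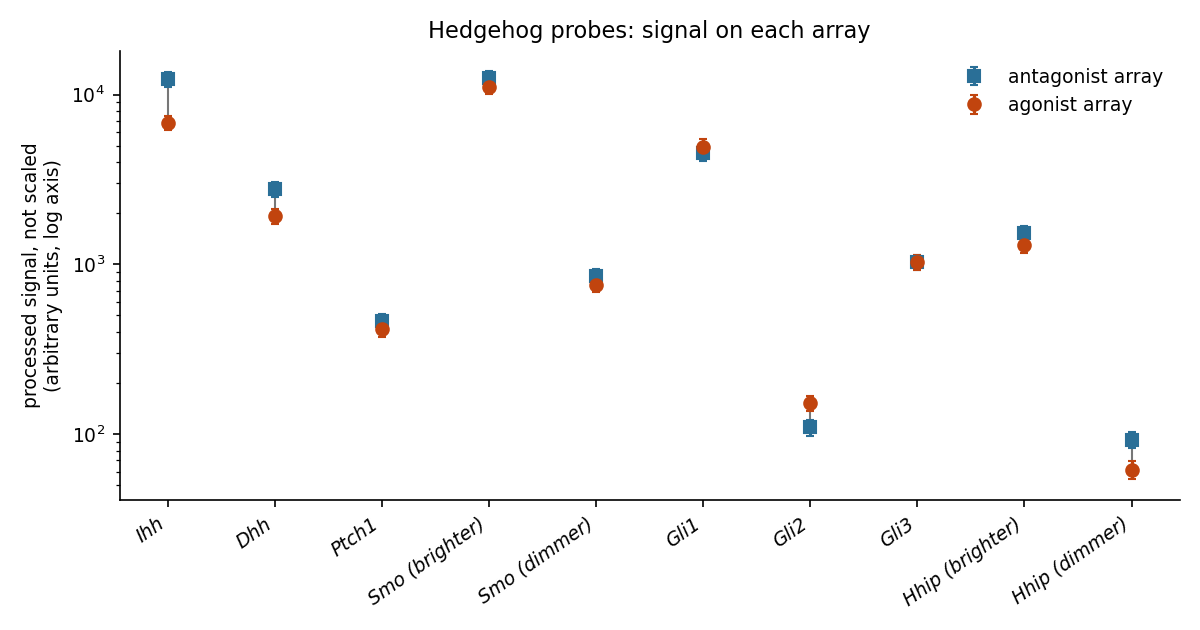
Processed signal of the 10 Hedgehog probes on the agonist array (circles) and the antagonist array (squares), in arbitrary units on a log axis and without scaling. Bars are the software's spot error. Ihh shows the widest gap, 6832 against 12387, and Gli3 nearly none, 1026 against 1032.

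The receptor Ptch1, which restrains Smo and is induced by the pathway, gave 415 with agonists and 466 with antagonists. Its log2 ratio was -0.41 (spot error 0.21). Smo, the transducer, gave 11153 and 12486 at its brighter probe, a log2 ratio of -0.40. Its dimmer probe gave 760 and 855, a log2 ratio of -0.41, so that the probes of Smo differed in ratio by 0.0066. Ptch1 and Smo thus lay at nearly the same ratio, below the median of all probes (-0.10) and inside the range from the 5th to the 95th percentile (-0.58 to 0.72).

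The Gli transcription factors lay highest among the 8 genes. Gli1, an activator and the most used readout of the pathway, gave 4943 with agonists and 4525 with antagonists, a log2 ratio of -0.11 (spot error 0.20) that stood near the middle of all probes, with 47.5% below it. Gli2, the main activator downstream of Smo, gave 153 and 110, a log2 ratio of 0.24 (spot error 0.22). Gli3, which acts mostly as a repressor when the pathway is silent, gave 1026 and 1032, a log2 ratio of -0.25 (spot error 0.20). The direction of Gli1 depended on scaling, with 0.13 without scaling, 0.16 on the spike-in controls and 0.028 by loess, and that of Gli3 turned to 0.022 on the spike-in controls.

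Hhip, a membrane protein that binds the ligands and damps the pathway, was read by 2 probes. The brighter probe gave 1300 with agonists and 1522 with antagonists, a log2 ratio of -0.47 (spot error 0.20). The dimmer probe gave 61.6 and 93.0, a log2 ratio of -0.83 (spot error 0.24). The 2 ratios differed by 0.37, with an error of 0.31. Over 3781 genes with several probes well above background, the 2 brightest probes differed by a median of 0.14, and 17.5% of these genes differed by more than Hhip did.

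**Figure D2:**
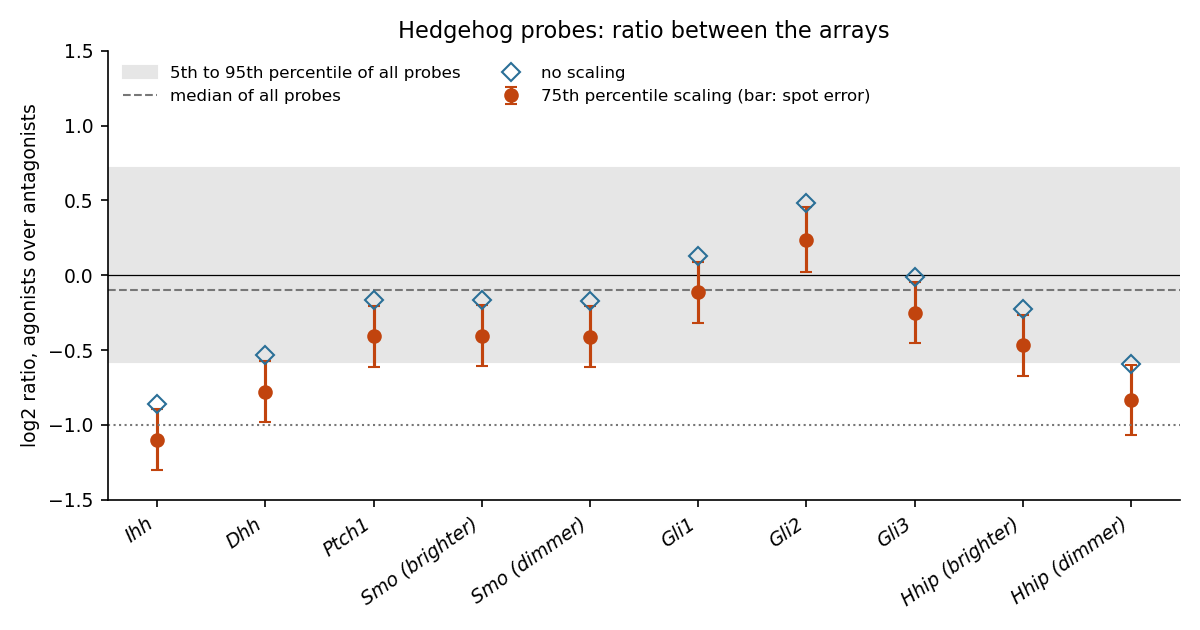
Log2 ratio of agonists over antagonists for the 10 Hedgehog probes, scaled on the 75th percentile (filled circles, bars are the spot error) and unscaled (open diamonds). The grey band runs from the 5th to the 95th percentile of the 33073 probes (-0.58 to 0.72), the dashed line is their median (-0.10) and the dotted line marks 2-fold lower. Ihh at -1.10, Dhh at -0.78 and the dimmer Hhip probe at -0.83 lie below the band, and Gli2 at 0.24 is the highest.

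Set against all features, 1 of the 10 Hedgehog probes, that of Ihh, was at least 2-fold lower with agonists and 0 were at least 2-fold higher. Of all probes, 0.705% were at least 2-fold lower and 2.69% at least 2-fold higher. Without scaling these shares were 0.296% and 4.53%. The median log2 ratio of the 8 genes, each by its brighter probe, was -0.41, beside -0.10 over the 15260 genes well above background on both arrays. Shares and medians of all genes and all probes are throughout of those well above background on both arrays, unless another filter is named. Of the 8 genes, 7 had a ratio below 0, as had 62.3% of all genes. The 2-fold call of Ihh rested on scaling: Ihh was at -0.86 without scaling, -0.83 on the spike-in controls, -0.95 by loess and at -0.997 and -0.999 by quantiles and in the authors' summary values, just short of 2-fold. Its distance from the median of all probes was -1.003 under every scaling by a constant, and -0.93 by quantiles and -0.94 by loess.

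A difference of ratios between 2 genes is free of such a constant. The log2 ratio of Ihh minus that of Gli1 was -0.99 (error 0.29), minus that of Gli2 -1.34 (error 0.30) and minus that of Ptch1 -0.69 (error 0.29). For Dhh, the difference from Gli1 was -0.66 (error 0.29) and that from Ptch1 -0.37 (error 0.29), the latter within 2 errors. Ihh was thus separated from each of these 3 genes by over 2 errors, and Dhh from Gli1 and Gli2 among them. Dhh lay within 2 errors of Smo, Gli3 and the brighter Hhip probe as well, while Ihh lay over 2 errors from each of those. Ptch1, Smo, the brighter Hhip probe, Gli1 and Gli3 were not separated from each other by 2 errors. In all, 11 of the 28 pairs of genes differed by over 2 errors. The share among pairs of all genes was not worked out, so that this count does not set the 8 genes apart from others. The errors of these differences come from the spot errors, which were larger than the median SD between repeated spots. The count of separated pairs depends on them. They are of spots on 1 array a group, so that they do not say whether other ovaries would show the same order. A scaling by a constant leaves the order of the genes as it is. By quantiles, loess and normexp background correction, and with the mean over a gene's probes, which could change it, Ihh had the lowest ratio, Dhh the next and Gli2 the highest.

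**Figure D3:**
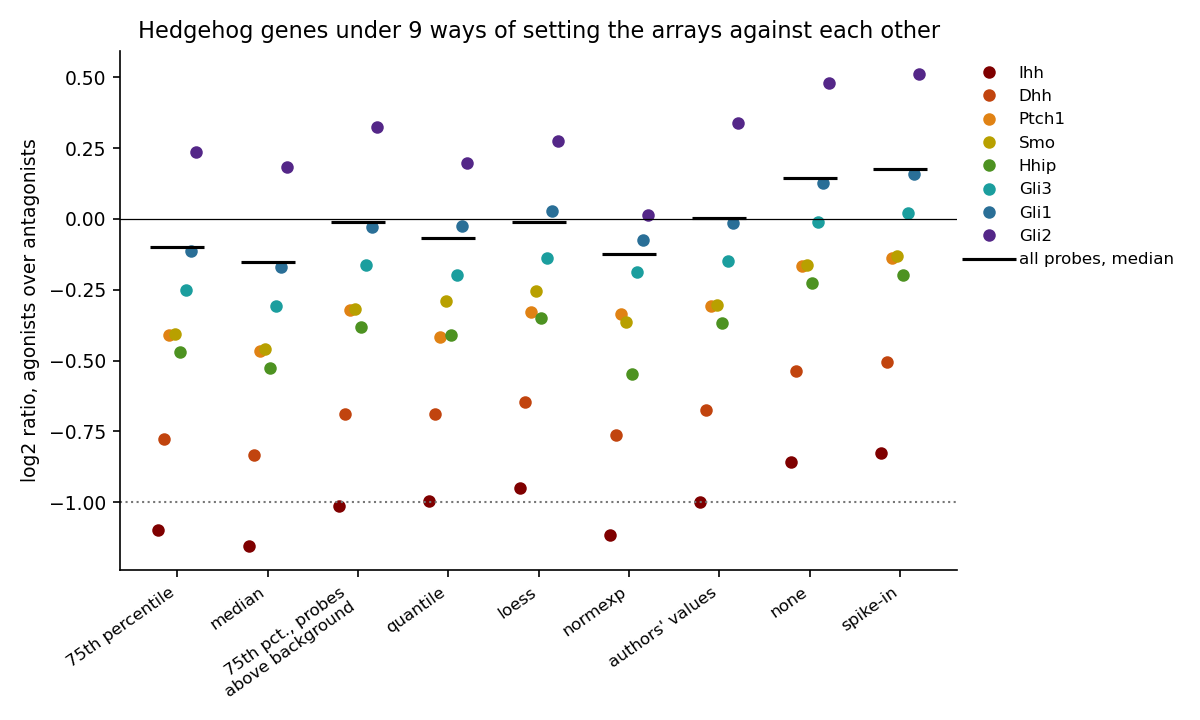
Log2 ratio of agonists over antagonists of the 8 Hedgehog genes under 9 ways of scaling or background correction, each gene by its brighter probe. Short black lines are the median of all probes and the dotted line marks 2-fold lower. Ihh runs from -1.16 to -0.83 and Gli1 lies on either side of 0, while the order of the genes could differ by quantiles, loess and normexp alone, since the others shift all genes by 1 constant.

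The cells that send and receive these signals were followed by marker genes. The granulosa list, the cells known to make Ihh and Dhh, had a median log2 ratio of -0.47 over 10 genes, all well above background on both arrays. Of these, 8 of 10 were below 0, beside 62.3% of all genes. Its lowest gene was Inhbb, the inhibin beta B subunit, with signals of 9120 with agonists and 17298 with antagonists and a log2 ratio of -1.17, and its highest was Cyp19a1, the aromatase, at 0.37. Fshr, the receptor of follicle-stimulating hormone, was at -0.73 and the inhibin subunit Inha at -0.68. Foxl2, which keeps granulosa identity, was at 0.32 by its brighter probe and -0.37 by the other. The summed unscaled signal of the list was 83238 with agonists and 98398 with antagonists.

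Of the granulosa genes 1 of 10 was at least 2-fold lower and 0 at least 2-fold higher, beside 0.577% and 4.01% of all genes. Ihh, Dhh and most granulosa markers were lower on the agonist array, and the part of granulosa cell number in the ratios of the ligands was not tested. In RNA of whole tissue, fewer cells of a type and less RNA per cell cannot be told apart.

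The theca and steroidogenic list had a median of -0.23 over 6 genes, with none 2-fold apart. Cyp17a1, the enzyme of androgen synthesis that marks theca cells, gave 15415 with agonists and 17266 with antagonists and was lowest at -0.41, the same as Ptch1. Cyp11a1, the side chain cleavage enzyme, was highest at 0.79. The theca marker Lhcgr, the receptor of luteinizing hormone, was not well above background on either array, and Insl3 had no named probe. The summed unscaled signal was 77721 with agonists and 67933 with antagonists. Of this, Hsd3b1, a dehydrogenase of steroid synthesis, gave 40513 and 29721. The 75th percentile of the agonist array was also the higher, 672 against 569.

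Markers of the other ovarian cells had higher median ratios. Oocyte markers, by which the tissue is an ovary with growing follicles, were all 8 well above background, with a median of 0.11 and a range from -0.13 (Zp3, a zona pellucida protein) to 0.59 (Figla, a transcription factor of early oocytes). Stromal fibroblast markers had a median of 0.41 over 7 genes, from -0.30 (lumican, Lum) to 0.77 (Tcf21, a mesenchymal transcription factor). Ovarian surface epithelium markers had a median of 1.03 over 7 genes, 4 of them at least 2-fold higher, beside 4.01% of all genes: Krt18 at 1.03, Krt7 at 1.15, Krt19 at 1.40, all keratins, and the galectin Lgals7 at 3.14, with Upk3b lowest at 0.62. Their summed unscaled signal was 26092 with agonists and 10017 with antagonists.

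The endothelial, smooth muscle and macrophage lists had medians above 0. At least 2-fold higher were 1 of 7, 1 of 5 and 2 of 6 genes, beside 4.01% of all genes. The endothelial median was 0.88, from -0.27 (Kdr, a VEGF receptor, whose other probe was at 0.38) to 1.62 (Tie1), and Tek was at least 4.10-fold higher. The smooth muscle median was 0.81, from 0.60 (Acta2) to 1.83 (Actg2), and Des was at least 2.63-fold higher. The macrophage median was 0.71, from 0.15 (Csf1r, with another probe at -0.09) to 1.82 (Mrc1), with Adgre1 at 1.42 by its brighter probe and 0.72 by the other. The part of these cells in the Hedgehog ratios was not tested.

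Tissues that may stay attached to the ovary were read by few genes. The fatty acid binding protein Fabp4, of adipocytes and vessels, was at 3.82, with Plin1 at 0.59 and Adipoq not well above background. Of the motile cilia and oviduct list, Tekt1 was at 2.47 by its brighter probe and 0.54 by the other, and Ovgp1 was lowest at -0.55. Of the erythrocyte list, Hba-a1 was at -0.15 and Slc4a1 at 0.25.

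**Figure D4:**
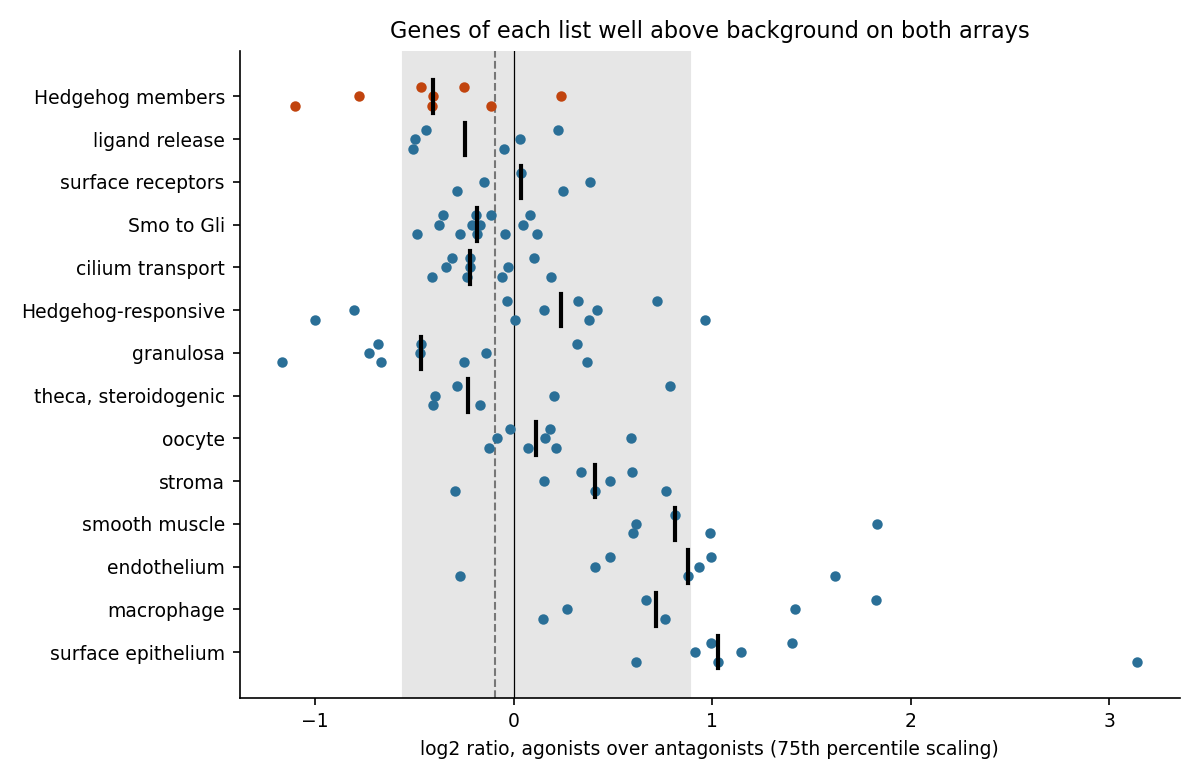
Log2 ratio of agonists over antagonists for genes well above background on both arrays, each point a gene by its brightest probe and each black bar the median of a list. The grey band runs from the 5th to the 95th percentile of all 15260 genes (-0.55 to 0.89) and the dashed line is their median (-0.10). The median of the Hedgehog genes (-0.41, with genes from -1.10 to 0.24) lies beside that of the granulosa markers (-0.47). Without Ihh and Dhh it was -0.33 over 6 genes. The medians of the surface epithelium, endothelium, smooth muscle and macrophage lists lie between 0.71 and 1.03.

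Other parts of the pathway were read from lists of its components. None of the 44 components well above background on both arrays was 2-fold apart, beside 4.01% of all genes higher and 0.577% lower. The count rested on scaling. Foxl1 was at least 2-fold higher without scaling (1.20), on the spike-in controls (1.23) and in the authors' summary values (1.06). It was also so on the 75th percentile of probes above background (1.05). Mycn was at least 2-fold lower with scaling on the median (-1.05). By normexp background correction, Foxl1 was at 0.26. For ligand processing and release the median was -0.25 over 6 genes, from Adam17, a sheddase, at -0.51 (its other probe was at -0.11) to Hhat, the enzyme that adds palmitate to the ligands, at 0.23. Disp1, which releases the ligands from the cell, lay at -0.05, and Scube2, which helps that release, at -0.50. The co-receptors and surface binding proteins had a median of 0.04 over 5 genes, with the co-receptor Gas1 highest at 0.38 (another of its probes was at -0.02), and of 0.14 with Lrp2 at its bound.

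Lrp2, megalin, an endocytic receptor that takes up many ligands including Shh, was well above background with agonists alone and there at least 11.3-fold higher. It gave 267 with agonists and 11.2 with antagonists.

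The regulators between Smo and Gli had a median of -0.19 over 13 genes. The lowest was Grk2, a kinase of activated Smo, with 3366 and 3996 and a log2 ratio of -0.49, and the highest Stk36, the Fused homologue, at 0.12. Sufu, which holds the Gli proteins in the cytoplasm, was at -0.27, and Kif7, a kinesin of the cilium tip, at -0.35. The intraflagellar transport and cilium list, the organelle in which Smo and the Gli proteins act, had a median of -0.22 over 10 genes, from Tulp3 at -0.41 to Ift27 at 0.19.

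The list of genes known to respond to Hedgehog in mesenchyme was spread more widely. Its median was 0.24 over 10 genes, with 7 above 0 and 3 below, beside 62.3% of all genes below 0. Mycn, a proliferation gene that Gli factors can induce, was lowest, with 2147 with agonists and 3628 with antagonists and a log2 ratio of -0.998, 1.998-fold lower and just short of 2-fold. Ccnd2, cyclin D2, which granulosa cells need to divide, was at -0.80. Foxl1, a forkhead factor, was highest, with 101 and 44.1 and a log2 ratio of 0.96, but of 0.26 by normexp. Sfrp1, a Wnt antagonist, was at 0.72. Foxf1, Foxf2 and Hand2 were not well above background on either array. The ratios of these response genes lay on both sides of 0, and Ptch1, Hhip and Gli1 had ratios below this list's median.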

How the data were processed

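Total RNA of each group was labelled with Cy3 and hybridised to 1 Agilent SurePrint mouse array; both arrays lay on the same slide. The authors deposited the intensity of each spot as read by Agilent Feature Extraction 10.10.1.1, after background correction and without scaling between arrays, and a summary table of intensities that equals it times a constant per array. Control and outlier spots were left out, log2(processed signal) was reduced by each array's 75th percentile (672 and 569), and spots of a probe were averaged (55674 probes). A probe counted as well above background if the software marked over 50% of its spots so. Genes were named through RefSeq transcripts, and the brightest probe stood for a gene. Where 1 array was above background, a lower bound of the fold is given, against the lowest signal well above background on the other. With 1 array a group the number of arrays limits the precision and no test was run. Named were all Hedgehog probes and, of other lists, the lowest and highest gene, those 2-fold apart, bounds over 2-fold and Shh; other genes were named after their values were seen, and 1 gene is not reported here. The genes and lists were chosen with earlier results of these data known. The calculation was tested on simulated data. Python 3.11.15, numpy 2.4.6, pandas 2.3.3, R 4.3.3 and limma 3.58.1 were used.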

Additional observations from a re-analysis of the deposited data

How the results depend on the processing

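The median log2 ratio of the 8 Hedgehog genes, -0.41, kept its sign under all 13 alternatives. It was -0.31 in the authors' summary values, -0.29 by loess, -0.17 without scaling and -0.13 on the spike-in controls. In the other 9 it moved by less than 0.090. That is an error of the median worked out from the spot errors as if the 8 genes were independent. The count of Hedgehog probes at least 2-fold apart, 1, was 0 without scaling, 0 by quantiles, 0 by loess, 0 on the spike-in controls and 0 in the authors' summary values, and 3 at a 1.5-fold threshold, at which 4.90% of all probes were lower. Over all probes, 890 were higher and 233 lower, against 1499 and 98 without scaling, 1608 and 89 on the spike-in controls, 1099 and 149 in the authors' summary values, 410 and 60 by normexp (offset 50), 231 and 31 among probes at or above the 75th percentile, and 3339 and 2333 without the filter on dim probes. The median of all probes moved between -0.15 (scaling on the median) and 0.18 (spike-in controls). Of 102 values of single Hedgehog genes under the alternatives, 85 moved by less than the spot error and 4 changed sign, 3 of Gli1 and 1 of Gli3. Some alternatives could not move a gene's value, since each probe was a single unmarked spot well above background. These were the median over spots, kept outliers, both changes of the signal filter and, for genes with 1 probe, the mean over probes. Apart from the stricter filter and the mean over probes, they could not move the median of the 8 genes either. By normexp Gli2 was at 0.015. Of the 44 other pathway components, counted anew after the data were seen, 1 was at least 2-fold apart under 5 of the 10 alternatives, Foxl1 in 4 and Mycn in 1. The differences of Ihh and of Dhh from Gli1, recomputed after the data were seen, ran from -1.04 to -0.97 and from -0.69 to -0.66, with a constant scaling unable to move them, and the median of the granulosa list from -0.52 to -0.20. No paired analysis was possible because each group has 1 array. Signal over background limits Gli2 and the dimmer Hhip probe most, whose spot errors were 0.22 and 0.24.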
